A study of Saccharomyces cerevisiae with 9 samples.

Results

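Enolase, pyruvate kinase, pyruvate decarboxylase and alcohol dehydrogenase carry out the last steps by which the budding yeast Saccharomyces cerevisiae turns glucose into ethanol. Each of these steps is served by more than 1 gene, and 8 such genes were followed: the enolase genes ENO1 and ENO2, the pyruvate kinase genes CDC19 and PYK2, the pyruvate decarboxylase genes PDC1, PDC5 and PDC6, and the alcohol dehydrogenase gene ADH1. They were taken by name, through the probe that carries the systematic name of the gene, and all 8 were found among the 6947 probes of the array. The arrays compared RNA of a strain evolved for 6700 generations (Cy5) with RNA of the strain it descended from (Cy3). The evolved strain was m8, a single mutator line set against its mutator ancestor, on 6 arrays. The control comparison, on 3 arrays, set an evolved non-mutator strain against the non-mutator ancestor. Every culture had been grown in YPD, a rich glucose medium, in 3 ml to an OD600 of about 0.3. The sources used here name neither the strain backgrounds nor the alleles that make the mutator ancestor a mutator.

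Enolase converts 2-phosphoglycerate to phosphoenolpyruvate, and pyruvate kinase then passes the phosphate to ADP and releases pyruvate. In fermentation, pyruvate decarboxylase splits pyruvate into acetaldehyde and carbon dioxide, and alcohol dehydrogenase reduces acetaldehyde to ethanol, which restores NAD+ for glycolysis. Yeast on glucose makes most of its enolase from ENO2, while ENO1 is expressed more evenly across carbon sources. CDC19 encodes the main pyruvate kinase, which is activated by fructose bisphosphate, and PYK2 a second one that does not need this activator and is repressed by glucose. PDC1 is the main decarboxylase gene, PDC5 rises when PDC1 is lost or thiamine is short, and PDC6 is a minor gene. ADH1 encodes the main fermentative alcohol dehydrogenase, and its close relative ADH2 encodes the enzyme that uses ethanol after glucose is gone.

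The 6 mutator arrays came as a first round of 3 and a repeat round of 3 that carried the same evolved RNA numbers. The arrays of each number were averaged, which leaves n = 3 in each group. Values below are log2 ratios of evolved strain over ancestor, with 0 set at the median of each array, and the SD is over replicates. Centring lowered mutator values by 0.10 on average and left non-mutator values within 0.02 of the deposited scale. Direction follows the dyes in the labels, which is the likely reading of a ratio whose direction is not stated. Labels do not say whether replicates were separate cultures, so p-values measure the spread between these RNA samples, which may be technical. The fit shares that spread between the groups, and averaging takes differences between rounds out of the mutator SDs and p-values. The consensus correlation (limma, over all probes) was -0.31 between arrays of 1 RNA number. It was 0.30 between arrays of 1 round, with the non-mutator arrays as 1 block. Across all probes of an array the log2 ratios had an SD between 0.85 and 1.001 for the mutator and between 0.28 and 0.30 for the non-mutator, and precision is limited by how few arrays there are.

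In the mutator line 5 of the 8 genes fell relative to the ancestor, 0 rose and 3 did not pass the test (limma, called under 0.05 after Benjamini-Hochberg adjustment across the 6866 probes in the fit). The 5 were PYK2, ENO1, ENO2, CDC19 and ADH1, and the 3 were the pyruvate decarboxylase genes. Of all probes tested, 75.1% passed and 37.8% passed as lower, so a decrease was common on these arrays, and the count of 5 in 8 is to be read against that share. The median of the 8 genes was -0.40, against 0.02 for all probes. In the non-mutator strain 0 of the 8 passed by limma, where 21.2% of all probes did, and 0 of the 8 had an unadjusted p under 0.05. There 6 of the 8 carried a ratio shared with many probes. All 5 also passed as lower in each hybridisation round fitted by itself, with limma's adjusted p no higher than 0.000809 (first) and 0.00204 (repeat). The plot of the 8 genes by array shows PYK2 far below the other genes in the mutator line.

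**Figure D1:**
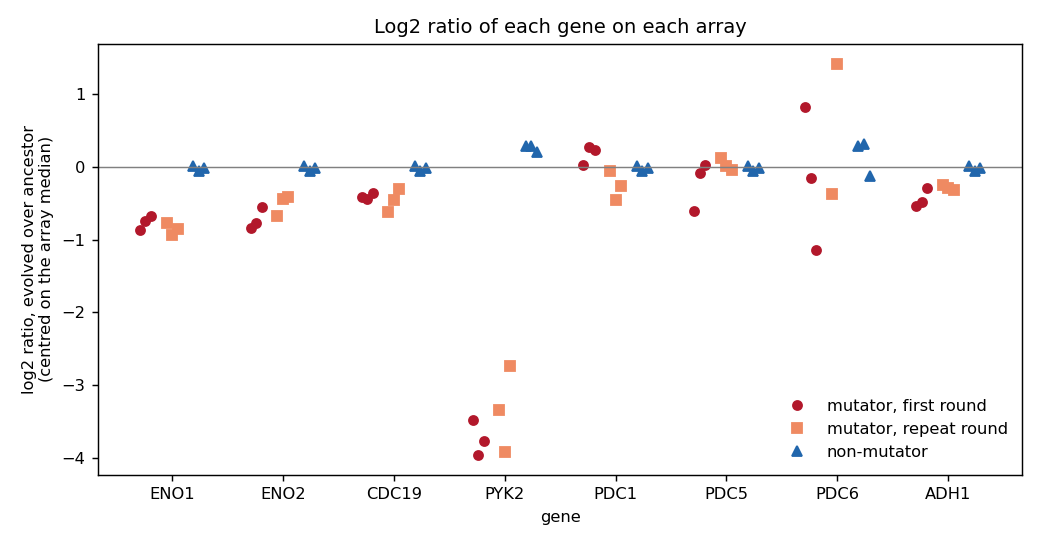
Log2 ratio of evolved strain over ancestor (vertical axis, centred on the array median) for each of the 8 genes (horizontal axis), 1 point per array, with first-round and repeat mutator arrays left of the non-mutator arrays. PYK2 lies between -3.96 and -2.73 on the mutator arrays, ENO1, ENO2, CDC19 and ADH1 lie between -0.94 and -0.26, and the PDC genes straddle 0.

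PYK2 (YOR347C, chromosome XV), the glucose-repressed pyruvate kinase gene, had log2 ratios of -3.47, -3.96 and -3.76 on the first-round mutator arrays and -3.34, -3.91 and -2.73 on the repeat arrays, against 0.28, 0.28 and 0.20 on non-mutator arrays 2, 3 and 4. The groups do not overlap, and the repeat array of RNA number 3 is the highest of the 6 mutator arrays. On the deposited linear scale the mutator ratios ran from 0.069 to 0.160, and the non-mutator ratios from 1.15 to 1.23. PYK2 fell to -3.53 ± 0.36 in the mutator line (SD, n = 3), which is 11.5-fold lower than in the ancestor (limma, adjusted p = 2.09e-06). By its mutator mean PYK2 was number 32 from the lowest of the 6866 probes tested, with 0.45% of them below it. In the non-mutator strain it stood at 0.26 ± 0.046 (SD, n = 3) and did not pass with the spread shared between groups (limma, adjusted p = 0.203). It passed there when the non-mutator arrays were fitted alone (limma, adjusted p = 0.00904), with 3 of 3 arrays above 0. The mutator change minus the non-mutator change was -3.79 with a 95% interval of -4.22 to -3.35 (limma, adjusted p = 1.24e-05).

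CDC19 (YAL038W, chromosome I), the other pyruvate kinase gene, moved far less. Its log2 ratios were -0.41, -0.45 and -0.36 on the first-round mutator arrays and -0.63, -0.45 and -0.31 on the repeat arrays, against 0.0043, -0.056 and -0.014 on non-mutator arrays 2, 3 and 4. All 6 mutator arrays lie below all 3 non-mutator arrays. CDC19 fell to -0.43 ± 0.093 in the mutator line (SD, n = 3), or 1.35-fold lower (limma, adjusted p = 0.000295). The median of the 91 tested genes of chromosome I was -0.13, the lowest among the chromosomes that hold these 8 genes, and with each gene centred on the median of its own chromosome CDC19 stood at -0.28 (limma, adjusted p = 0.00144).

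ENO1 (YGR254W, chromosome VII), the enolase gene expressed more evenly across carbon sources, had log2 ratios of -0.87, -0.74 and -0.67 on the first-round mutator arrays and -0.78, -0.94 and -0.85 on the repeat arrays, against 0.0046, -0.055 and -0.014 on the non-mutator arrays. ENO2 (YHR174W, chromosome VIII), the enolase gene favoured on glucose, had first-round values of -0.85, -0.77 and -0.55 and repeat values of -0.68, -0.45 and -0.42, against 0.0044, -0.056 and -0.014 on the non-mutator arrays. Both genes were below 0 on 6 of 6 mutator arrays and below every non-mutator array. ENO1 fell to -0.81 ± 0.043 (SD, n = 3), 1.75-fold lower (limma, adjusted p = 8.29e-06). ENO2 fell to -0.62 ± 0.14 (SD, n = 3), 1.54-fold lower (limma, adjusted p = 0.000137). The enolase genes encode very similar proteins, and probe sequences were not used here, so how far each probe reports the other gene is unknown.

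ADH1 (YOL086C, chromosome XV) had log2 ratios of -0.54, -0.48 and -0.30 on the first-round mutator arrays and -0.26, -0.29 and -0.32 on the repeat arrays, against 0.0044, -0.056 and -0.014 on the non-mutator arrays. All mutator arrays were again below all non-mutator arrays. ADH1 fell to -0.36 ± 0.049 (SD, n = 3), 1.29-fold lower (limma, adjusted p = 0.000319). In all, 5 of the 8 genes had every mutator array below every non-mutator array, as had 28.3% of the 6173 probes with a value on all 9 arrays. Of the 5, only PYK2 had non-mutator ratios of its own, and those of ENO1, ENO2, CDC19 and ADH1 were shared with many probes.

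None of the pyruvate decarboxylase genes passed in the mutator line, and no test set them against the other steps. PDC1 (YLR044C, chromosome XII), the main gene of the step, had log2 ratios of 0.030, 0.28 and 0.23 on the first-round mutator arrays, but -0.060, -0.46 and -0.27 on the repeat arrays. Every first-round array was thus above 0 and every repeat array below it. Over both rounds PDC1 stood at -0.043 ± 0.042 (SD, n = 3), with a 95% interval of -0.14 to 0.057 (limma, adjusted p = 0.372). That small SD is a product of averaging 1 array of each round: within the rounds, the means were 0.18 ± 0.13 in the first round but -0.26 ± 0.20 in the repeat (SD, n = 3 arrays each). Fitted on the mutator arrays of 1 round with the non-mutator arrays, PDC1 passed as higher in the first round (limma, adjusted p = 0.0428). It passed as lower in the repeat (limma, adjusted p = 0.0267), where 71.7% (first) and 68.9% (repeat) of all probes passed. Both p-values share the non-mutator spread of PDC1, an SD of 0.031 from a ratio shared with many probes. The direction of PDC1 in the mutator line therefore depended on the hybridisation round, and without centring its mean was 0.059.

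PDC5 (YLR134W, chromosome XII), the second decarboxylase gene, had -0.60, -0.084 and 0.027 on the first-round mutator arrays and 0.12, 0.011 and -0.051 on the repeat arrays. It stood at -0.097 ± 0.13 (SD, n = 3), with a 95% interval of -0.24 to 0.041 (limma, adjusted p = 0.164), and 3 of 6 arrays were below 0. The first-round array of RNA number 1 lay apart from the other 5. PDC6 (YGR087C, chromosome VII), the minor gene, was the least precise of the 8. Its log2 ratios were 0.81, -0.15 and -1.14 on the first-round arrays and -0.37 and 1.42 on repeat arrays, where the array of RNA number 3 had no value. Deposited ratios ran from 0.48 to 2.90, and the ratio of first-round array 1 was deposited as 1.9 with no further decimals. PDC6 stood at -0.095 ± 0.93 in the mutator line and at 0.15 ± 0.24 in the non-mutator strain (SD, n = 3 each), with adjusted p = 0.794 and 0.815 by limma. Its 95% interval in the mutator, from -0.87 to 0.68, leaves room for changes as large as those of ENO1.

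On the non-mutator arrays 6 of the 8 genes carried the same deposited ratio. ENO1, ENO2, CDC19, PDC1, PDC5 and ADH1 had ratios between 1.0152 and 1.0155 on array 2, between 0.9664 and 0.9668 on array 3 and between 0.9914 and 0.9917 on array 4. Their non-mutator log2 means are therefore all -0.02 and their SDs all 0.031. They were not alone: 248 probes, or 3.57% of the array, had a ratio inside the most crowded window of 0.001 on all 3 non-mutator arrays. That window held 283, 288 and 320 probes on arrays 2, 3 and 4, against 31 to 34 in the next most crowded window of each array. On the mutator arrays the most crowded window held 18 to 48 probes once ratios at the lowest value, 0.01, were left out, against 13 to 28 in the next. For RNA number 3 it held 31 against 20 in the first round and 48 against 20 in the repeat. CDC19, at 0.8254 on that first-round array, lay inside its window, which started at 0.8245. The histogram of ratios near 1 shows the narrow peaks of the non-mutator arrays and the 6 genes inside them. What produced the shared ratio was not tested, and no signal intensities were used here. The values that 6 of the genes have on the non-mutator arrays thus cannot be told apart from a value that is not specific to the gene, and only PYK2 and PDC6 had ratios of their own there.

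**Figure D2:**
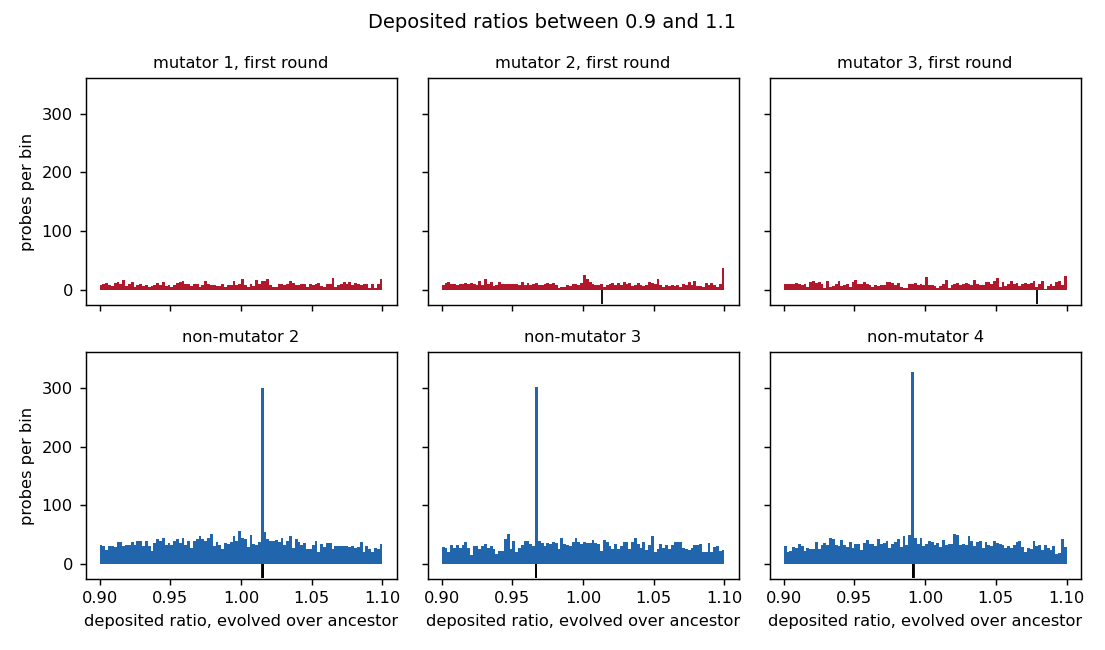
Number of probes (vertical axis) per bin of 0.002 of the deposited ratio of evolved strain over ancestor (horizontal axis, 0.9 to 1.1) on the 3 first-round mutator arrays (top) and the 3 non-mutator arrays (bottom). Black ticks under the bars mark ENO1, ENO2, CDC19, PDC1, PDC5 and ADH1 where they fall in this range; on each non-mutator array all 6 stand under the peak, which reaches 300, 301 and 326 probes on arrays 2, 3 and 4.

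On the mutator arrays the same 248 probes spread widely, from -1.54 to 0.96 with a median of -0.36 and quartiles of -0.94 and 0.27. Ordered from the lowest, ENO1 was number 79 of the 248, ENO2 87, CDC19 116, ADH1 124, PDC5 154 and PDC1 159. The mean changes of these genes in the mutator line come from the mutator arrays alone. Their p-values and intervals in the main fit do not, since the spread of each probe is shared with the non-mutator arrays. Fitted without the non-mutator arrays, ENO1, ENO2, CDC19 and ADH1 kept their calls, with adjusted p between 0.00108 and 0.00782 by limma. The mutator change minus the non-mutator change passed for the same 5 of 8 genes by limma, where 63.9% of all probes passed and 30.9% passed as lower. For ENO1 (-0.79), ENO2 (-0.60), CDC19 (-0.41) and ADH1 (-0.34) that difference sets a mutator value against the shared ratio. With the shared ratios set to missing, an alternative chosen after seeing the data, PYK2 and PDC6 were the members left to test, and PYK2 passed. The difference of ADH1 (-0.22) did not pass with arrays scaled to 1 spread (limma, adjusted p = 0.0865).

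Isozyme genes of 1 step were then set against each other on the same array, to see whether they changed unequally. This cancels any factor common to all ratios of an array, but not a difference in spread between arrays. There were 6 such contrasts, and with 3 replicates the exact sign-flip test cannot go below p = 0.25, nor the exact permutation test of mutator against non-mutator replicates below p = 0.10 (both two-sided), so no contrast could pass. PYK2 minus CDC19 was -3.09 ± 0.34 in the mutator line and 0.28 ± 0.060 in the non-mutator strain (SD, n = 3 each). It ran from -3.51 to -2.42 over the mutator arrays, negative on 6 of 6, so that PYK2 fell by 8.53-fold more than CDC19. Both exact tests gave the smallest p they can, 0.25 and 0.10 (0.75 and 0.30 after Benjamini-Hochberg adjustment over the 6 contrasts). CDC19 carried the shared ratio on the non-mutator arrays, so the 0.28 used by the permutation test is PYK2 against that ratio. With the 6 mutator arrays taken as separate samples, which they are not, the exact sign-flip p was 0.031 and its adjusted value 0.19.

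ENO1 minus ENO2 was -0.19 ± 0.11 in the mutator line (SD, n = 3), negative in 3 of 3 replicates and on 5 of 6 arrays (exact sign-flip p = 0.25, adjusted 0.75). The unequal change came mainly from the repeat arrays, where the contrast was -0.094, -0.49 and -0.43, against -0.028, 0.030 and -0.12 in the first round. In the non-mutator strain the contrast was 0.000095 ± 0.000056 (SD, n = 3), a value set by the shared ratio of both genes. Since 0.25 is the smallest p this test can give, it does not settle whether ENO1 fell by more than ENO2.

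PDC5 minus PDC1 was -0.63, -0.36 and -0.20 on the first-round mutator arrays and 0.18, 0.47 and 0.22 on the repeat arrays. The contrast had 1 sign on every array of a round and the opposite sign on every array of the other round, and its mean over replicates was -0.054 ± 0.15 (SD, n = 3, exact sign-flip p = 1.0). The contrasts that contain PDC6 had SDs of 0.95 and 0.98 in the mutator line, and their means of -0.052 (PDC6 minus PDC1) and 0.0016 (PDC6 minus PDC5) have no readable direction. ADH2 minus ADH1 was -0.035 ± 0.26 in the mutator line and 0.0061 ± 0.075 in the non-mutator strain (SD, n = 3 each, exact permutation p = 0.90). ADH1 carried the shared ratio on the non-mutator arrays, so the non-mutator value sets ADH2 against that ratio. ADH2 itself stood at -0.40 ± 0.31 in the mutator line and passed as lower (limma, adjusted p = 0.0174), with 1 of 6 arrays above 0.

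**Figure D3:**
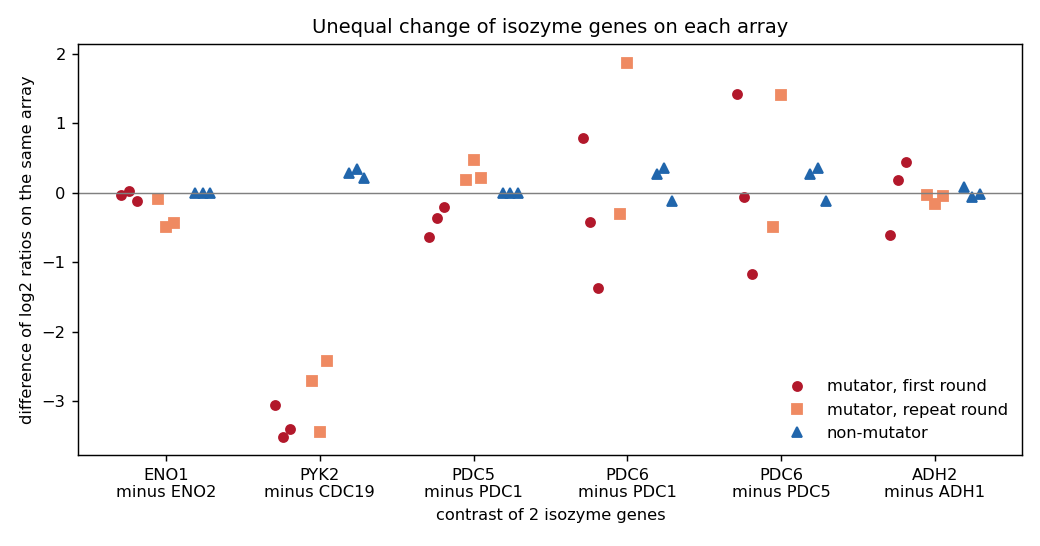
Difference between the log2 ratios of 2 isozyme genes on the same array (vertical axis) for the 6 contrasts (horizontal axis), 1 point per array, with mutator arrays left of the non-mutator arrays. PYK2 minus CDC19 lies between -3.51 and -2.42 on the 6 mutator arrays, PDC5 minus PDC1 changes sign between the first and the repeat round, and ENO1 minus ENO2 and PDC5 minus PDC1 sit at 0 on the non-mutator arrays.

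Ordered by their change in the mutator line from the largest decrease, the genes ran PYK2, ENO1, ENO2, CDC19, ADH1, PDC5, PDC6 and PDC1. Replicate values of PYK2 (-3.93 to -3.24) lay far from those of ENO1 (-0.84 to -0.76). ENO1 and ENO2 (-0.76 to -0.49) met at the edge of their ranges, and ENO2 and CDC19 (-0.52 to -0.33) overlapped, as did CDC19 and ADH1 (-0.40 to -0.31). ADH1 did not overlap with PDC5 (-0.24 to -0.012), and the 3 PDC genes overlapped with each other. Of the 5 genes that fell, none changed sign on any mutator array.

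The genes that feed this part of the pathway are listed from glucose phosphorylation to phosphoglycerate mutase, and 13 of 13 of them fell in the mutator line, with a median of -0.51 against 0.02 for all probes, of which 37.8% were called lower. They ran from the hexokinase gene HXK1 at -4.52 ± 0.17 (limma, adjusted p = 3.42e-07) to the aldolase gene FBA1 at -0.22 ± 0.12 (limma, adjusted p = 0.0103). Round means of HXK1 were -5.043 (first) and -3.997 (repeat), a gap that averaging hides from the SD. The glucokinase gene GLK1 stood at -3.94, and the other 11 genes lay between -1.18 and -0.22, a range that also holds ENO1, ENO2, CDC19 and ADH1. Without centring FBA1 stood at -0.12 and did not pass (limma, adjusted p = 0.0924), which left 12 of 13, and with arrays scaled to 1 spread 11 of 13 passed. In the non-mutator strain 1 of the 13 passed, the phosphofructokinase gene PFK2 at -0.27 (limma, adjusted p = 0.0261), against 21.2% of all probes, and 8 of the 13 carried the shared ratio. The plot along the pathway sets these genes beside the 8 members.

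**Figure D4:**
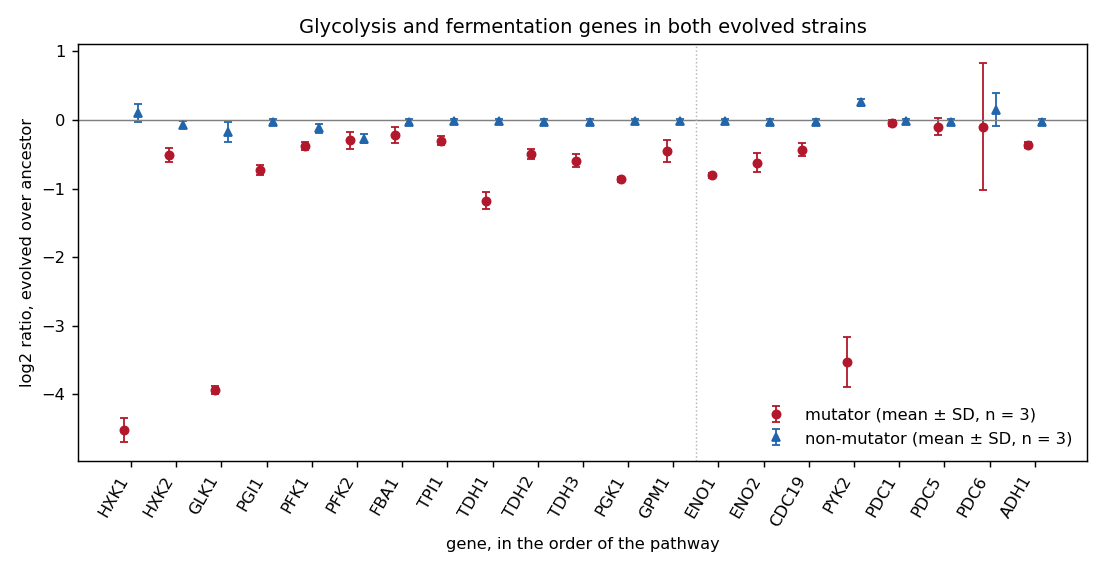
Log2 ratio of evolved strain over ancestor (vertical axis, mean ± SD, n = 3) for the upper glycolysis genes and, right of the dotted line, the 8 genes followed here, in pathway order (horizontal axis), with the mutator left of the non-mutator for each gene. HXK1, GLK1 and PYK2 lie at -4.52, -3.94 and -3.53 in the mutator line, PDC1 and PDC5 lie near 0, and PDC6 has an SD of 0.93.

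Side copies of the glycolytic enzymes numbered 5, of which 4 were tested, and 1 fell in the mutator line: the phosphoglycerate mutase homologue GPM2 at -2.56 ± 0.45 (limma, adjusted p = 1.58e-05). The highest was the enolase-related gene ERR3 at 0.26 ± 0.74, which did not pass. ERR1, another enolase-related gene, was at the lowest ratio on 5 of 6 mutator arrays and at -6.12 on the other, against 2.09 to 2.23 on the non-mutator arrays, and was too sparse to test. With the lowest ratios kept, all 5 side copies were tested and 2 were lower in the mutator line. ERR1, ERR2 and ERR3 are close copies, so how far each probe reports the others is unknown, although ERR1 had values unlike those of ERR2 and ERR3. Of the 7 other alcohol dehydrogenase genes, 5 fell (ADH2, ADH3, ADH4, ADH5 and ADH6) and 1 rose (SFA1) in the mutator line, with a median of -0.19. Of all probes 75.1% were called and 37.8% called lower. With arrays scaled to 1 spread 2 fell and 0 rose, with a median of -0.15, and the first round alone also gave 2 lower. ADH4 (-0.19 ± 0.017) was above 0 on 3 of its 6 mutator arrays. In the non-mutator strain ADH4 stood at -0.46 ± 0.10, so that the mutator minus the non-mutator change was 0.27 and passed as higher (limma, adjusted p = 0.0166). ADH5 was the lowest at -3.67 ± 0.15 (limma, adjusted p = 4.44e-07), a decrease as large as that of PYK2, and the formaldehyde dehydrogenase gene SFA1 the highest at 0.16 ± 0.12 (limma, adjusted p = 0.0403). In the decarboxylase family, ARO10, which acts on the keto acids of amino acid breakdown, rose by 0.89 ± 0.071 in the mutator line (round means 0.36 in the first and 1.41 in the repeat, a gap that averaging hides from the SD) but fell to -1.27 ± 0.036 in the non-mutator strain (limma, adjusted p = 8.59e-06 and 8.57e-05). THI3, a decarboxylase-like regulator of thiamine genes, fell to -0.62 ± 0.21 in the mutator line (limma, adjusted p = 0.000587).

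Pyruvate and acetaldehyde have other fates than ethanol. From acetaldehyde to acetyl-CoA, 4 of 7 genes fell (ALD2, ALD3, ALD4 and ACS1) and 2 rose (ALD5 and ALD6) in the mutator line, with a median of -0.25, beside the 75.1% of all probes called and 37.8% called lower. With only the first-round mutator arrays in the fit, 6 were lower and 1 higher, with a median of -0.84. With only the repeat mutator arrays, 3 were lower and 3 higher, with a median of -0.084. The extremes were the aldehyde dehydrogenase genes ALD3 at -3.30 ± 0.060 and ALD5 at 0.44 ± 0.056. ALD6, the main cytosolic aldehyde dehydrogenase gene, had a mean of -0.84 in the first round but 1.60 in the repeat, so its direction depended on the round. In the non-mutator strain ALD3, ALD5, ALD6 and ACS2 fell and ALD2 and ACS1 rose, where 21.2% of all probes were called. For entry of pyruvate into mitochondria, 5 of 8 genes fell (MPC3, PDA1, LAT1, LPD1 and PDX1) and 1 rose (MPC1) in the mutator line, with a median of -0.24. That is 6 of 8 called, where 75.1% of all probes were. With arrays scaled to 1 spread 2 fell and 1 rose. The carrier subunit gene MPC1 rose by 0.53 ± 0.13, and MPC3, another subunit of the carrier, fell to -1.15 ± 0.041 over rounds that differed widely (-1.86 in the first, -0.45 in the repeat). Of 4 genes of pyruvate carboxylation and gluconeogenesis 1 fell in the mutator line (PYC2 at -0.85 ± 0.17), with PCK1 at -0.93 ± 1.05 and PYC1 at -0.11 ± 0.10 the extremes, neither of which passed. That count was 3 without mutator replicate 1 and in the first round alone, and 2 without mutator replicate 3. All 4 genes of the glycerol branch fell in the mutator line, beside 37.8% of all probes called lower, from GPP2 at -2.52 ± 0.10 to GPP1 at -0.26 ± 0.011. That count was 3 in the first round alone and with centring on the chromosome median. Averaging hides gaps between rounds from the SD: means were -0.13 (first) and -0.38 (repeat) for GPP1, and -0.55 and -1.35 for GPD2.

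Among 6 regulator genes of these enzymes, 3 rose (RAP1, PDC2 and GCR2) and 3 fell (GCR1, TYE7 and THI2) in the mutator line, beside the 75.1% of all probes called and 37.8% called lower. TYE7 had a mean of 0.027 in the first round but -0.38 in the repeat, and 2 regulators were called lower without centring. The highest was RAP1, a general activator of glycolytic and ribosomal protein genes, at 0.67 ± 0.11 (limma, adjusted p = 6.28e-05), and the lowest THI2, an activator of thiamine genes, at -1.15 ± 0.23 (limma, adjusted p = 3.81e-05). Round means of THI2 were -0.67 (first) and -1.64 (repeat). GCR1, an activator of glycolytic genes, fell to -0.52 ± 0.11 and its partner GCR2 rose by 0.43 ± 0.16. PDC2, an activator of PDC1 and PDC5, rose by 0.64 ± 0.058 (limma, adjusted p = 4.14e-05), with round means of 0.93 (first) and 0.35 (repeat), while neither PDC1 nor PDC5 passed. List genes other than the highest and the lowest of each list are named after their values were seen.

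Profiles over the 9 arrays were compared by the root mean square difference of the log2 ratios, among 5470 named genes with a value on every array. For PYK2 the nearest were TFS1, an inhibitor of carboxypeptidase Y, at 0.32, the decapping enzyme homologue DCS2 at 0.32 and YCL042W at 0.34. These differences are larger than those of the other members but are not scaled to the spread of a gene. PYK2 itself had SDs of 0.25 (first round) and 0.59 (repeat) over mutator arrays. TFS1 and DCS2 stood at -3.43 and -3.63 in the mutator line. For ENO1 the nearest were ARK1 (0.066), BNA3 (0.070) and PCT1 (0.071), and for CDC19 they were LMO1 (0.066), FAR8 (0.076) and TDH2 (0.084). ENO2 lay nearest to KRE1 (0.087), the mitochondrial alcohol dehydrogenase gene ADH3 (0.088) and the glyceraldehyde-3-phosphate dehydrogenase gene TDH3 (0.095), and ADH1 to LPD1 (0.078), VPS29 (0.090) and LSB5 (0.094). PDC1 lay nearest to VID22, EAF1 and POL31 (0.078 to 0.107), and PDC5 to PRE7, ATG26 and VAN1 (0.094 to 0.106). TDH2 and TDH3 carry the shared ratio on the non-mutator arrays, as do CDC19 and ENO2, so 3 of the 9 arrays add no difference there. PDC6 lacks a value on 1 array and was not compared.

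Position on the chromosome was not shared, with the 8 genes on 5 chromosomes, and the genes next to them moved in either direction or did not pass. Beside PYK2 the translesion synthesis gene REV1 rose by 0.97 and the proline permease gene PUT4 stood at 0.081 (limma, adjusted p = 5.49e-06 and 0.843). Beside ENO1 the proteasome gene PUP2 fell to -0.35 and the coenzyme Q synthesis gene COQ6 to -0.79 (limma, adjusted p = 0.000578 and 1.82e-05). Beside PDC6 the catalase gene CTT1 fell to -2.47 (limma, adjusted p = 2.71e-06).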

How the data were processed

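Total RNA of evolved and ancestral yeast was hybridised to 9 2-colour arrays, of which the 6 mutator arrays carried 3 evolved RNA numbers. The values deposited by the authors are linear ratios, evolved strain (Cy5) over ancestor (Cy3) per the labels. The sources used here do not state background correction, scaling or software, and no intensities were used. Of 6947 probes, 5840 matched an R64 gene, used for names, chromosomes and gene order only. Ratios at the lowest value (0.01, tolerance 1e-04) were set to missing, log2 ratios were centred on each array's median, and mutator arrays of 1 evolved RNA number were averaged. On the repeat array of evolved RNA 2 the ancestor RNA was number 1, and the non-mutator replicate numbers 2, 3 and 4 follow the titles, from which the descriptions differ. Probes with 2 or more replicate values in both groups went into 1 limma 3.58.1 fit (lmFit, eBayes, R 4.3.3) with a mean per group and 95% intervals, two-sided, called at an adjusted p under 0.05 over all probes. The code was tested on simulated data. Isozyme contrasts used exact sign-flip and permutation tests in Python 3.11.15. The members, gene lists, contrasts and tests were chosen with earlier results of these data known. Genes outside the 8 were named as the highest and lowest of each list and the 3 nearest profiles of each member, and others only where the text says so or where GLK1, ADH2 or a chromosomal neighbour is discussed, chosen after their values were seen. Alternatives were other centrings and scalings, array and round handling, filters, thresholds, a replicate block and leaving out replicates. Fits of 1 mutator round kept the non-mutator arrays. Sequences of probes, promoters and proteins were not used here.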

Additional observations from a re-analysis of the deposited data

Results flagged for a closer look

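Mutator and non-mutator changes differed by limma for PYK2 (-3.79), ENO1 (-0.79), ENO2 (-0.60), CDC19 (-0.41) and ADH1 (-0.34), each given as the mutator log2 ratio minus the non-mutator one. For PYK2 the non-mutator ratios were its own, while for the other 4 they were the ratio shared by 248 probes.

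PDC5 had 1 mutator array far from the other 5, the first-round array of RNA number 1 at -0.60, where the others lay between -0.084 and 0.12. About 1 group in 20 would show such a gap by chance.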

How the results depend on the processing

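The decreases of ENO1, ENO2, CDC19, PYK2 and ADH1 in the mutator line passed under all 21 alternatives by limma, with ranges of -0.86 to -0.62, -0.72 to -0.47, -0.48 to -0.28, -3.73 to -2.68 and -0.44 to -0.26 and adjusted p up to 0.0124. The mutator minus non-mutator difference of ENO1, ENO2 and PYK2 also passed wherever it was fitted.

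Signs turned for values that were near 0 in the main setting, and some of the turned values were not near 0. The cause was not tested. Without centring PDC6, PDC1 and PDC5 stood at 0.0054, 0.0585 and 0.0046 in the mutator line, with differences of 0.0714 (PDC1) and 0.0178 (PDC5). With arrays scaled to the same spread, 1 member was called in the non-mutator strain (PYK2), the difference of PDC1 was 0.0192 and PDC6 minus PDC5 was -0.0168. Centred on the chromosome median, PDC6 minus PDC1 was 0.0063. With 6 mutator arrays as replicates PDC6 was 0.1136 and PDC6 minus PDC1 0.1113. PDC6 was 0.1975 when RNA number was a random block (difference 0.0457) and 0.148 with the round. In the first round alone PDC1 was 0.1769 and passed (limma, adjusted p = 0.0428), its difference was 0.1982, and ADH2 minus ADH1 was 0.0081. In the repeat round alone PDC6 was 0.5226 and PDC5 0.0268, with differences of 0.3707 and 0.0484, PDC5 minus PDC1 was 0.2898 and PDC6 minus PDC1 0.7823. Each group fitted alone gave 1 call in the non-mutator strain (PYK2). Setting shared ratios to missing left 2 members testable and 1 called in the difference. Setting ratios with at most 1 decimal to missing gave PDC6 minus PDC5 of -0.1947.

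Without 1 replicate, calls in the non-mutator strain were 0 to 1 (PYK2, without mutator replicate 2, adjusted p = 0.0225 by limma). PDC6 ran from -0.4594 to 0.427 in the mutator line (0.427, without mutator replicate 3, passed with adjusted p = 0.0437 by limma), its difference from -0.6112 to 0.2752, and that of PDC1 from -0.0387 to 0.0027. PDC5 minus PDC1 ran from -0.1087 to 0.0327, PDC6 minus PDC1 from -0.4407 to 0.4805, PDC6 minus PDC5 from -0.3321 to 0.5665 and ADH2 minus ADH1 from -0.1531 to 0.107.

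Replicate numbers 2 and 3 occur in both groups but share only a number, with same-number correlations of -0.020 and 0.016 across probes. With the replicate block 3 of 8 differences were called, where 50.7% of all probes were. Those of CDC19 (-0.37, adjusted p = 0.0611) and ADH1 (-0.32, adjusted p = 0.0751) were not among them by limma, and that of PDC5 was 0.0014. Calls over all probes in the non-mutator strain numbered 1457, but 3455 with arrays at the same spread and 2481 with each group alone. The same non-mutator arrays gave 868 calls when fitted with first-round mutator arrays only, and 741 with repeat mutator arrays only. Non-mutator calls were 297 with 6 mutator arrays, 316 and 82 with RNA number and round as random blocks, and 347 to 1875 without 1 replicate. Calls in the difference numbered 4390, but 2673 with the round as a random block.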
